A study of Mus musculus with 6 samples.

Results

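The miR-29 family was followed through small RNA libraries of extracellular vesicles (EVs), membrane particles shed by cells, that had been recovered from mouse brain tissue. Its members were taken by name, as every row of the deposited table whose mature name is an arm of miR-29a, miR-29b or miR-29c, which gave 7 of 1926 features. They are the 3p arms mmu-miR-29a-3p, mmu-miR-29b-3p and mmu-miR-29c-3p, and the 5p arms mmu-miR-29a-5p, mmu-miR-29b-1-5p, mmu-miR-29b-2-5p and mmu-miR-29c-5p. SE-BDEV libraries 1 to 3 come from brains in which status epilepticus, a prolonged seizure, had occurred, and CON-BDEV libraries 1 to 3 from those of matched controls. All titles give day 10, without a starting event. Strain, age, sex, the agent that set off the seizure and whether animals were pooled are not stated in the labels. Nothing in them ties libraries to separate animals, so every p below measures the spread between these libraries, which may be technical.

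A miRNA is cut from an RNA hairpin, and either arm of the hairpin can be kept as the mature strand. The arm that is loaded into the silencing complex finds its target messages mainly through its seed, bases 2 to 8 counted from the 5′ end. In the miR-29 family the 3p arms are the main strands. They are known repressors of collagens and other extracellular matrix genes and of the DNA methyltransferases Dnmt3a and Dnmt3b, and in maturing mouse neurons of pro-apoptotic BH3-only genes. In brain the family is known to increase with maturation and to be abundant in astrocytes. The messages themselves were not measured here.

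All 7 members were found by name in the RefSeq table of mature miRNAs (build GRCm38.p6). The 3p arms are shown first because they carry nearly all of the family's reads. Capitals mark the seed, and all sequences run 5′ to 3′.
mmu-miR-29a-3p: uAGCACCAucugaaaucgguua
mmu-miR-29b-3p: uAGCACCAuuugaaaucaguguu
mmu-miR-29c-3p: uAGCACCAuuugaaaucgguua
mmu-miR-29a-5p: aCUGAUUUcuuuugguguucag
mmu-miR-29b-1-5p: gCUGGUUUcauauggugguuua
mmu-miR-29b-2-5p: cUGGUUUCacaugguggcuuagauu
mmu-miR-29c-5p: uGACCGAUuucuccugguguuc

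The 3 3p arms share the seed AGCACCA, which no other of the 1679 mature miRNAs in that table has (0.179% of them, 3 in all). With positions counted from 1 at the 5′ end, miR-29a-3p and miR-29c-3p differ over their 22 bases by C10U alone. miR-29a-3p and miR-29b-3p differ by C10U, G18A, U21G and A22U. miR-29b-3p and miR-29c-3p differ by A18G, G21U and U22A, and miR-29b-3p has 23 bases. Reads of miR-29a-3p and miR-29c-3p are thus told apart by a single base, and how the authors' counting treated mismatches is not stated in the labels. The last 6 bases of miR-29b-3p, AGUGUU, act as a nuclear import element of miR-29b in human cells. These letters end 2 of the 1679 mature miRNAs (0.119%), miR-29b-3p and miR-92b-5p.

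The 5p arms have 4 different seeds. They also tell apart the hairpins of miR-29b, which give an identical 3p arm. These hairpins are shown with both mature arms in capitals.
Mir29b-1: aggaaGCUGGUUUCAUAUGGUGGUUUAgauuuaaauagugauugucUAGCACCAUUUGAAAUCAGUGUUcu
Mir29b-2: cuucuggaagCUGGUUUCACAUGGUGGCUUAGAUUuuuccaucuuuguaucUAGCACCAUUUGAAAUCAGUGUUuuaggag
In GRCm38.p6, Mir29b-1 lies at chr6:31063023-31063093 and Mir29a at chr6:31062660-31062747, both on the minus strand with 275 bases between them. Mir29b-2 lies at chr1:195037040-195037120 and Mir29c at chr1:195037547-195037634, both on the plus strand and 426 bases apart. In GENCODE M21 the chromosome 1 pair falls within exons of the non-coding transcript A330023F24Rik, and on the other strand within exons of Cd46. Mir29b-1 shares 2 bases with the end of the non-coding RNA gene Gm27019 on the same strand, and Mir29a overlaps no other annotated gene.

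Libraries held 4996073 to 9391887 reads in SE-BDEV and 4400167 to 8147118 in CON-BDEV, as recovered from the step between the deposited values. The values are RPM, reads scaled to a fixed total of miRNA reads in each library. Both libraries numbered 3 stand apart from the rest by miR-24-3p, at 3128 RPM in SE-BDEV 3 and 3544 RPM in CON-BDEV 3 and listed at 0 in the other 4 libraries. Values without both are therefore given beside the differences of the 3p arms and the measures of the 3p pool.

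The miR-29 family made up 0.798% ± 0.261 of miRNA reads in SE-BDEV and 0.624% ± 0.0159 in CON-BDEV (SD, n = 3). Without both libraries numbered 3 the means were 0.688% in SE-BDEV and 0.616% in CON-BDEV. None of its arms differed between the groups past the threshold. The 3p arms had higher means in SE-BDEV, but for each of them SE-BDEV 2 lay below the lowest CON-BDEV library. For miR-29b-3p the higher mean rests on SE-BDEV 3.

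miR-29a-3p was the leading member, at 7870, 4527 and 8411 RPM in SE-BDEV 1, 2 and 3, against 5517, 5561 and 5668 RPM in CON-BDEV 1, 2 and 3. SE-BDEV 1 and 3 lay above all controls and SE-BDEV 2 below all of them, so the groups overlapped. By mean RPM over the 6 libraries it was the 19th most abundant miRNA, at place 17 to 20 in SE-BDEV libraries and 19 to 21 in CON-BDEV libraries. Its neighbours in that order, miR-7a-5p (6645 ± 1430 RPM, SD over 6 libraries) and miR-125b-5p (6075 ± 1268 RPM), did not differ from its 6259 ± 1524 RPM by more than the spread.

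miR-29b-3p stood at 379, 294 and 1165 RPM in SE-BDEV 1, 2 and 3, against 302, 326 and 392 RPM in CON-BDEV 1, 2 and 3. A single library, SE-BDEV 3, was high, and SE-BDEV 1 and 2 fell within or below the range of the controls. miR-29c-3p had 377, 263 and 596 RPM in SE-BDEV 1, 2 and 3, against 264, 301 and 333 RPM in CON-BDEV 1, 2 and 3. SE-BDEV 1 and 3 lay above all controls and SE-BDEV 2 just below the lowest. The order miR-29a-3p, miR-29b-3p, miR-29c-3p held in all 6 libraries. The step between miR-29b-3p and miR-29c-3p was narrowest in SE-BDEV 1, with 3557 and 3540 reads. It was widest in SE-BDEV 3, with 7863 and 4024 reads.

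**Figure D1:**
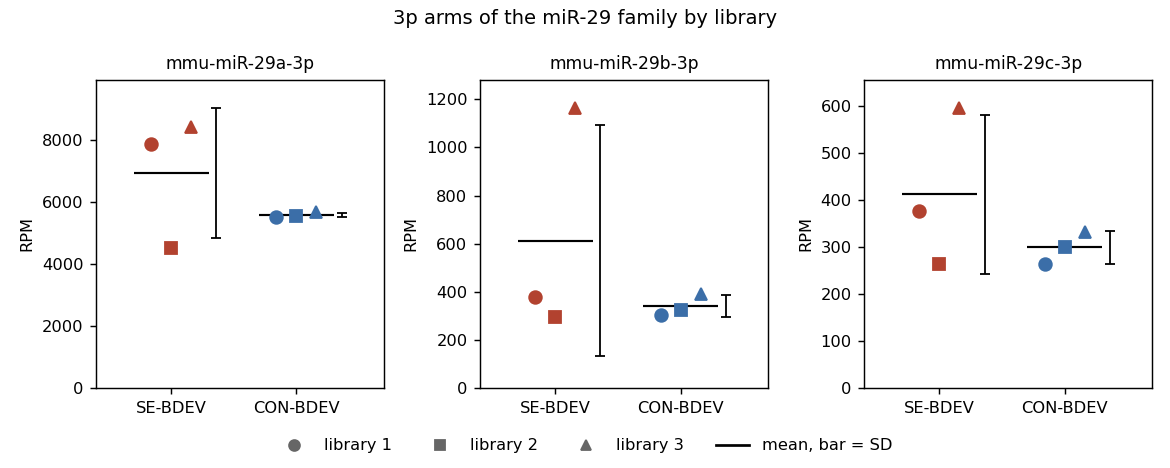
RPM of the 3p arms of the miR-29 family in each library (points; the marker shape gives the library number), with group means (lines) and SD (bars), n = 3 per group. SE-BDEV 2 lies below the controls in all 3 panels, and miR-29b-3p is set apart in SE-BDEV 3 at 1165 RPM.

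Groups were compared with limma on log2(RPM + 1), a scale that understates changes of low miRNAs, over the 308 miRNAs whose mean reached 10 RPM. Benjamini-Hochberg adjustment ran over all 308, and a call is an adjusted p under 0.05. Of the 7 miR-29 arms 4 reached that mean, and none was called or had an unadjusted p under 0.05. The background was 3 called miRNAs of 308, or 0.974%. It became 10 with the replicate number as a block, 8 without CON-BDEV 2 and 4 without both libraries numbered 3. It fell to 2 when SE-BDEV 1, SE-BDEV 2 or CON-BDEV 1 was left out alone. No miR-29 arm was called under any of these settings. The log2 difference of SE-BDEV minus CON-BDEV was 0.26 ± 0.24 for miR-29a-3p (SE, 95% interval -0.26 to 0.78, limma adjusted p = 0.724). For miR-29b-3p it was 0.58 ± 0.44 (SE, 95% interval -0.36 to 1.53, limma adjusted p = 0.660), and for miR-29c-3p 0.39 ± 0.34 (SE, 95% interval -0.34 to 1.11, limma adjusted p = 0.684). The interval of miR-29a-3p thus reaches a log2 difference of 0.78, and those of miR-29b-3p and miR-29c-3p reach beyond a doubling. The tested 5p arm, miR-29b-2-5p, had a difference of -0.16 ± 0.45 (SE, 95% interval -1.14 to 0.81, limma adjusted p = 0.921). The median difference of the 4 arms was 0.32 and that of all 308 miRNAs 0.061. Of the 4 arms none had groups that did not overlap, which was the case for 16.2% of the 308.

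The size of these differences depended on single SE-BDEV libraries, most of all for miR-29b-3p. Without SE-BDEV 3, miR-29b-3p was at -0.019 on the log2 scale, and miR-29a-3p and miR-29c-3p at 0.097 and 0.080. Without SE-BDEV 2 they were at 0.97, 0.54 and 0.67, with a limma adjusted p of 0.330 for each. Without both libraries numbered 3 the values were 0.087 for miR-29b-3p, 0.11 for miR-29a-3p and 0.16 for miR-29c-3p. Leaving out a single CON-BDEV library gave 0.50 to 0.69 for miR-29b-3p, 0.25 to 0.27 for miR-29a-3p and 0.30 to 0.47 for miR-29c-3p.

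The authors' deposited table, made with DESeq2, likewise held no miR-29 arm at an adjusted p under 0.05. The authors' deposited table gave log2 fold changes of 0.21 for miR-29a-3p, 0.74 for miR-29b-3p and 0.36 for miR-29c-3p, with adjusted p of 0.896, 0.660 and 0.815. For the 5p arms the authors' deposited table gave 1.32 for miR-29a-5p, -0.83 for miR-29b-1-5p, -0.16 for miR-29b-2-5p and 0.059 for miR-29c-5p. The smallest unadjusted p of a member in the authors' deposited table was 0.119, for miR-29b-3p.

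**Figure D2:**
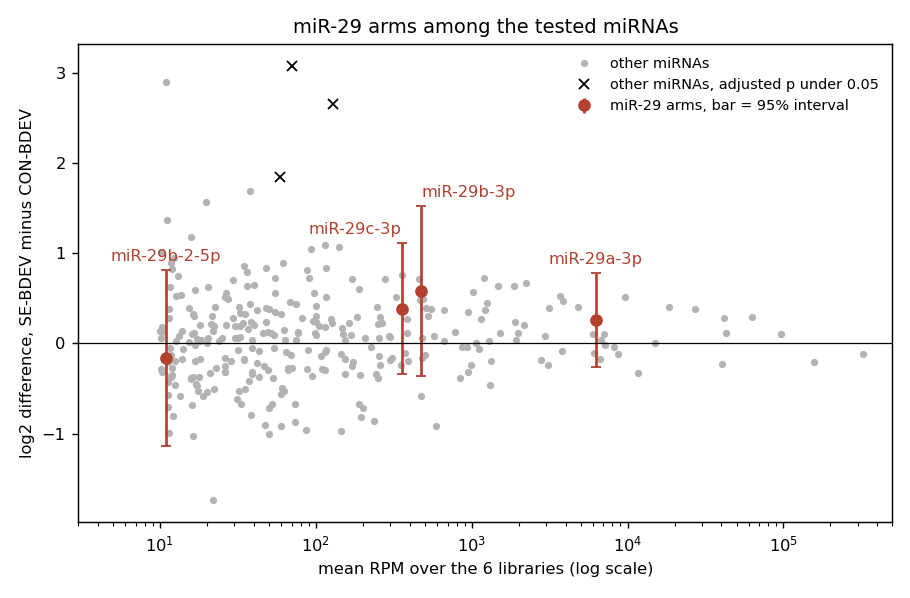
Log2 difference of SE-BDEV minus CON-BDEV (vertical axis) against mean RPM over the 6 libraries (horizontal axis, log scale) for the 308 tested miRNAs. The 4 tested miR-29 arms are drawn with their 95% intervals, all of which include 0, and crosses mark the 3 called miRNAs, none of which belongs to the family.

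The SDs of the 3p arms were larger among the SE-BDEV libraries than among the CON-BDEV libraries, in a comparison of SDs that was not tested. miR-29a-3p had a coefficient of variation of 30.3% in SE-BDEV and 1.39% in CON-BDEV (n = 3 each). On the log2(RPM + 1) scale its SD was 0.49 in SE-BDEV and 0.020 in CON-BDEV, a ratio of 24.5 that ranked 2nd of the 308 tested miRNAs. Its CON-BDEV SD was the 4th smallest of 308. The SD ratio was 5.50 for miR-29b-3p, 3.55 for miR-29c-3p and 4.72 for miR-29b-2-5p, and the median over all tested miRNAs was 1.03. With 3 libraries a group an SD is itself imprecise.

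By the share of miR-29b-3p, the make-up of the 3p pool was closer among 5 of the 6 libraries, with SE-BDEV 3 set apart. miR-29b-3p was 4.39%, 5.78% and 11.5% of the summed 3p arms in SE-BDEV 1, 2 and 3, against 4.97%, 5.28% and 6.13% in CON-BDEV 1, 2 and 3. Exact binomial 95% intervals ran from 11.2% to 11.7% in SE-BDEV 3 and reached no higher than 6.36% in the other 5 libraries. Those 5 also differed by more than counting error, with 4.25% to 4.53% in SE-BDEV 1 and 5.90% to 6.36% in CON-BDEV 3. The intervals cover counting error only. miR-29b-3p per miR-29c-3p was 1.005, 1.12 and 1.95 in SE-BDEV 1, 2 and 3, against 1.14, 1.09 and 1.18 in CON-BDEV 1, 2 and 3. The ratio does not depend on library scaling. These arms have 8 G or C bases each, in 23 bases for miR-29b-3p (34.8% GC) and 22 for miR-29c-3p (36.4% GC). They differ at A18G and at their 3′ ends, and the part of sequence in the ratio was not tested. miR-29a-3p per miR-29b-3p was 20.8, 15.4 and 7.22 in SE-BDEV 1, 2 and 3, against 18.3, 17.0 and 14.5 in CON-BDEV 1, 2 and 3. miR-29a-3p per miR-29c-3p varied less, from 14.1 to 20.9 in SE-BDEV and from 17.0 to 20.9 in CON-BDEV.

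For the groups as a whole, 7 measures of the family were compared with two-sided exact permutation tests on the log2 scale, whose smallest possible p for 3 against 3 is 0.1. The summed 3p arms came to 7961 ± 2608 RPM in SE-BDEV and 6221 ± 157 RPM in CON-BDEV (SD, n = 3, exact permutation p = 0.4). Shares of the 3p sum were 87.7% ± 4.44 in SE-BDEV and 89.7% ± 1.02 in CON-BDEV for miR-29a-3p (SD, n = 3, exact permutation p = 0.7). They were 7.21% ± 3.74 and 5.46% ± 0.602 for miR-29b-3p in SE-BDEV and CON-BDEV (SD, n = 3, exact permutation p = 0.8). For miR-29c-3p they were 5.14% ± 0.746 in SE-BDEV and 4.80% ± 0.434 in CON-BDEV (SD, n = 3, exact permutation p = 0.6). The Benjamini-Hochberg adjusted value over the 7 measures was 0.9 for each. Without both libraries numbered 3, the means of the summed 3p arms were 6855 RPM in SE-BDEV and 6135 RPM in CON-BDEV. The share of miR-29b-3p was then 5.09% in SE-BDEV and 5.12% in CON-BDEV, and miR-29b-3p per miR-29c-3p was 1.06 in SE-BDEV and 1.11 in CON-BDEV. The log2 difference of the summed 3p arms was 0.30 with all libraries, 0.090 without SE-BDEV 3 and 0.59 without SE-BDEV 2.

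**Figure D3:**
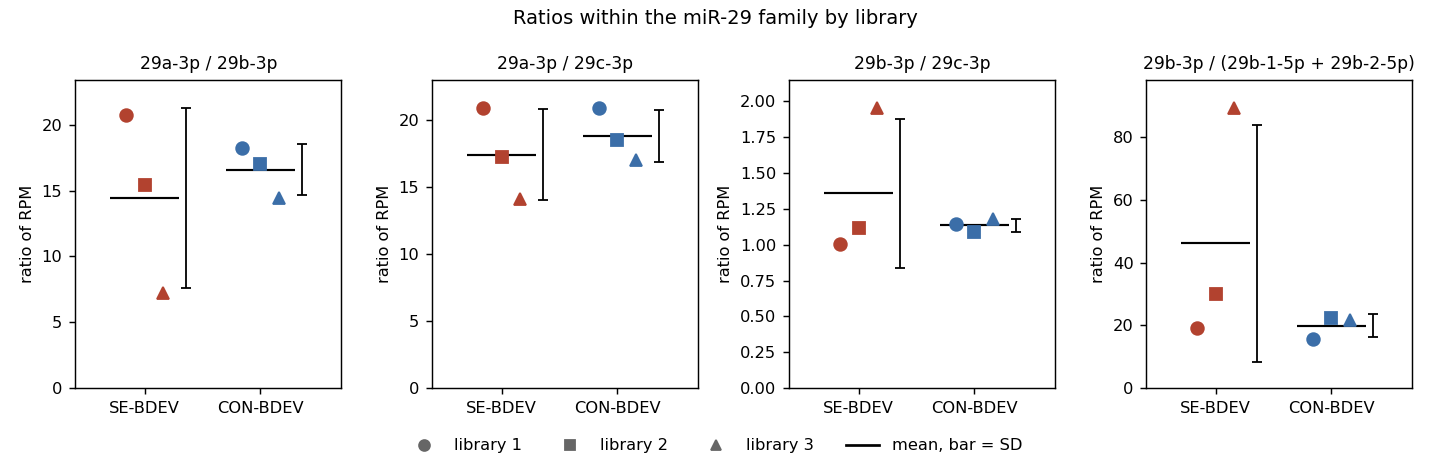
Ratios of RPM within the miR-29 family in each library (points; shape gives the library number), with group means (lines) and SD (bars), n = 3 per group. SE-BDEV 3 is the lowest library for miR-29a-3p per miR-29b-3p (7.22) and the highest for miR-29b-3p per miR-29c-3p (1.95) and for miR-29b-3p per summed 5p arms (89.4).

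SE-BDEV 3 exceeded the other 5 libraries by a wider gap for miR-29b-3p than for any other of the 308 tested miRNAs, by 1.57 on the log2 scale above the highest of them. miR-29c-3p took place 21 by the same measure (0.66) and miR-29a-3p place 71 (0.096). The next 4 places, named after their values were seen, were held by miR-137-3p (1.44), miR-376a-3p (1.31), miR-153-3p (1.29) and miR-136-3p (1.19). The leaders were poor in G and C: miR-29b-3p and miR-137-3p each have 34.8% GC, and the median was 34.8% over the 9 of the first 10 that have a RefSeq sequence, against 50% over the 270 tested miRNAs with a RefSeq sequence (87.7% of 308). All 4 tested miR-29 arms are among the 99 miRNAs of low GC content (27.3% to 45.5%), with 40.9% for miR-29a-3p, 36.4% for miR-29c-3p and 44.0% for miR-29b-2-5p. The first place of miR-29b-3p holds only for the gap to the highest other library. By deviation from the median of the other 5 libraries it took place 4 in SE-BDEV 3 (1.83). Above it were miR-24-3p (11.6), miR-21a-5p (2.90) and miR-155-5p (2.24). By that measure miR-29c-3p took place 28 (0.98) and miR-29a-3p place 64 (0.60).

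GC content moved with library as well. In SE-BDEV 3 the median deviation from the other libraries was 0.38 on the log2 scale for those 99 miRNAs and 0.077 for the 87 of highest GC content. In CON-BDEV 1 it was -0.39 for the 99 of low and 0.76 for the 87 of highest GC content. Across the 270 miRNAs, which share each library's total, the Spearman correlation of this deviation with GC content was -0.19, -0.30 and -0.30 in SE-BDEV 1, 2 and 3, against 0.70, -0.044 and -0.0064 in CON-BDEV 1, 2 and 3. All SE-BDEV values lay below all CON-BDEV values, so a GC trend and a group difference cannot be told apart here. The setting that follows also removes any group difference that goes with GC content. The part of GC content in the miR-29 differences was not tested. With a GC trend removed from each library, a setting chosen after seeing the data that keeps 270 miRNAs, the log2 difference was -0.041 for miR-29a-3p, -0.023 for miR-29c-3p and 0.14 for miR-29b-3p. The first 2 were thus slightly negative, with sizes well under their SE of 0.24 and 0.34 in the main fit. The limma adjusted p was 0.946 for miR-29a-3p, 0.977 for miR-29c-3p and 0.874 for miR-29b-3p. These log2 differences were the same with the replicate block, where the limma adjusted p was 0.935, 0.984 and 0.895. Without CON-BDEV 1 and with no GC trend removed, the log2 difference was 0.25 for miR-29a-3p, 0.30 for miR-29c-3p and 0.50 for miR-29b-3p.

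**Figure D4:**
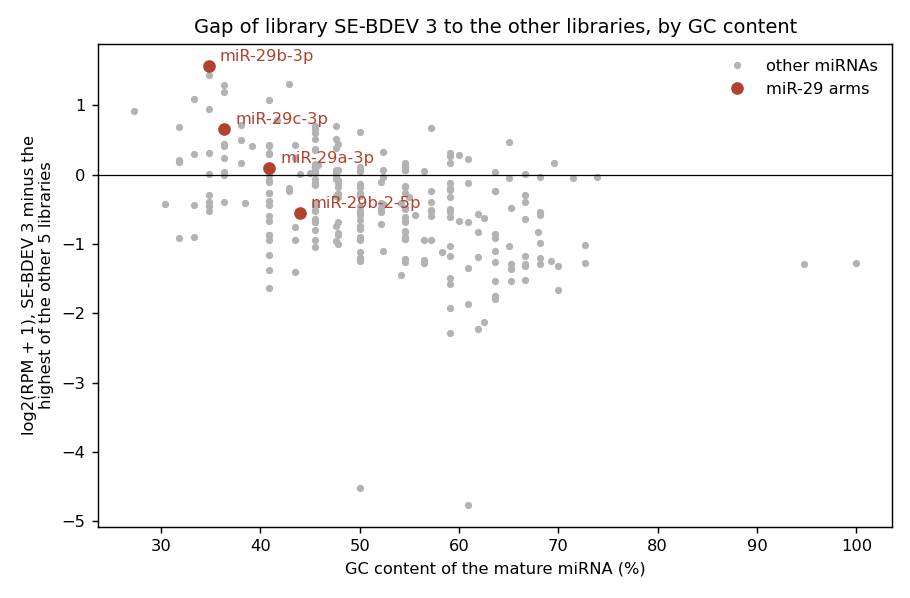
Log2(RPM + 1) in SE-BDEV 3 minus the highest of the other 5 libraries (vertical axis) against the GC content of the mature miRNA in percent (horizontal axis) for the 270 tested miRNAs with a RefSeq sequence. miR-29b-3p has the highest value, at 1.57 and 34.8% GC, with miR-29c-3p at 0.66, miR-29a-3p at 0.096 and miR-29b-2-5p below 0.

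The 5p arms, the minor strands of these hairpins, were present at 16.0 RPM or less and none of them was highest in SE-BDEV 3. miR-29b-2-5p, from the chromosome 1 hairpin, had 16.0, 5.60 and 10.5 RPM in SE-BDEV 1, 2 and 3, against 10.9, 10.2 and 12.6 RPM in CON-BDEV 1, 2 and 3. The SE-BDEV values lay on both sides of the controls. miR-29b-1-5p, from the chromosome 6 hairpin, had 3.83, 4.20 and 2.52 RPM in SE-BDEV 1, 2 and 3, against 8.41, 4.42 and 5.47 RPM in CON-BDEV 1, 2 and 3. All SE-BDEV values lay below all CON-BDEV values, with a narrow gap between SE-BDEV 2 (21 reads) and CON-BDEV 2 (36 reads). Of the 427 miRNAs above 0 in every library 4.92% were lower in SE-BDEV without overlap. Among the 6 members above 0 in every library this was 1, too few to read against that background.

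miR-29a-5p had 2.13, 6.20 and 4.44 RPM in SE-BDEV 1, 2 and 3, against 2.45 and 2.28 RPM in CON-BDEV 2 and 3, and was listed at 0 in CON-BDEV 1. SE-BDEV 1 was below both controls above 0, so the groups overlapped. miR-29c-5p had 5.11, 3.00 and 4.74 RPM in SE-BDEV 1, 2 and 3, against 4.77, 2.33 and 4.86 RPM in CON-BDEV 1, 2 and 3, and the groups overlapped. Over the 580 miRNAs whose mean reached 1 RPM, the log2 difference was 1.15 for miR-29a-5p (limma adjusted p = 0.625), -0.63 for miR-29b-1-5p (0.695) and 0.11 for miR-29c-5p (0.965). These arms rest on 15 to 48 reads a library where listed above 0. The summed 5p arms stood at 22.8 ± 4.04 RPM in SE-BDEV and 22.9 ± 3.10 RPM in CON-BDEV (SD, n = 3, exact permutation p = 0.9).

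**Figure D5:**
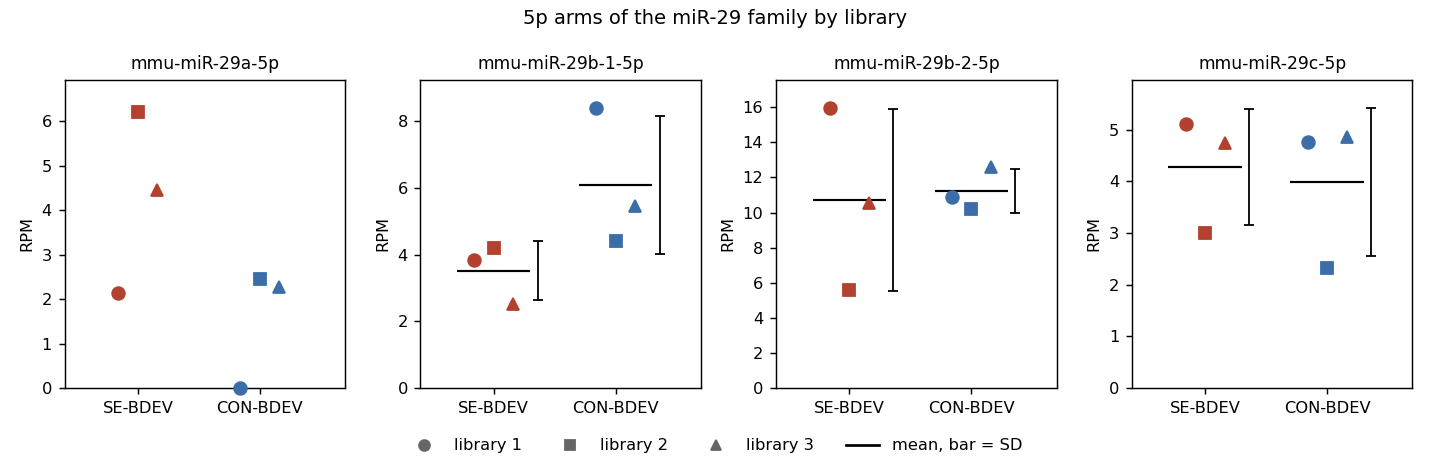
RPM of the 5p arms of the miR-29 family in each library (points; shape gives the library number), with group means (lines) and SD (bars), n = 3 per group. No mean is drawn for miR-29a-5p, which is listed at 0 in CON-BDEV 1, and miR-29b-1-5p is the only panel in which the groups do not overlap.

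The hairpins differed in how strongly the 3p arm prevailed. The 5p arm held 0.0271% (exact binomial 95% interval 0.0165 to 0.0418), 0.137% (0.0930 to 0.194) and 0.0528% (0.0356 to 0.0754) of the miR-29a reads in SE-BDEV 1, 2 and 3. In CON-BDEV 2 and 3 it held 0.0441% (0.0270 to 0.0681) and 0.0402% (0.0225 to 0.0663). SE-BDEV 2 was the only library whose interval lay above those of all others. In CON-BDEV 1, with 0 of 24274 reads, the interval was 0 to 0.0152, below those of all others. That interval takes the 0 as counted, and a value listed at 0 can be a removed value. The ratio of 3p to 5p reads for miR-29a was 3696, 730 and 1892 in SE-BDEV 1, 2 and 3, against 2265 and 2486 in CON-BDEV 2 and 3 (exact permutation p = 0.4, with 3 reads put in place of the 0 in CON-BDEV 1).

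For miR-29c the ratio of 3p to 5p was 73.8, 87.7 and 126 in SE-BDEV 1, 2 and 3, against 55.4, 129 and 68.4 in CON-BDEV 1, 2 and 3 (exact permutation p = 0.6). The groups overlapped, and over the 94 hairpins with both arms above 0 in all libraries 6.38% had ratios without overlap. By the size of its arm ratio miR-29c was 21st of these 94, and 38 of them favoured the 3p arm. For miR-29b, whose ratio was described after its values were seen, the 3p arm per summed 5p arms was 19.1, 30.0 and 89.4 in SE-BDEV 1, 2 and 3, against 15.6, 22.4 and 21.7 in CON-BDEV 1, 2 and 3. SE-BDEV 3 had the highest ratio, with 7863 reads of the 3p arm and 88 of the 5p arms.

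Reads of the miR-29b 5p arms came mostly from the chromosome 1 hairpin, though the intervals of SE-BDEV 2 and CON-BDEV 1 also allow an even split. miR-29b-2-5p gave 80.6% (exact binomial 95% interval 74.2 to 86.1), 57.1% (42.2 to 71.2) and 80.7% (70.9 to 88.3) of them in SE-BDEV 1, 2 and 3. In CON-BDEV 1, 2 and 3 it gave 56.5% (45.3 to 67.2), 69.7% (60.7 to 77.8) and 69.7% (60.7 to 77.8). SE-BDEV 1 and 3 lay above all controls and SE-BDEV 2 among them. How the 3p reads divide between the hairpins cannot be read from these values, since that arm is identical in both.

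The miRNAs with the most similar profile over the 6 libraries, by Pearson correlation of log2(RPM + 1) with the log2 of the summed 3p arms, were miR-300-5p (0.991), miR-222-5p (0.974), miR-708-5p (0.961), miR-30a-5p (0.951) and miR-185-5p (0.937). These correlations describe 6 libraries that share their totals, and carry no test. The summed profile is mainly that of miR-29a-3p, which correlated with it at 0.992. The other tested members correlated less than the 5 named miRNAs, at 0.932 for miR-29c-3p, 0.835 for miR-29b-3p and 0.606 for miR-29b-2-5p. miR-300-5p had 162, 117 and 192 RPM in SE-BDEV 1, 2 and 3, against 135, 138 and 137 RPM in CON-BDEV 1, 2 and 3. It thus shared with miR-29a-3p the tight controls and the low SE-BDEV 2. miR-30a-5p had 1270, 709 and 1934 RPM in SE-BDEV 1, 2 and 3, against 966, 884 and 1158 RPM in CON-BDEV 1, 2 and 3, with SE-BDEV 2 below all controls.

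Other miRNAs tied to the family's known roles were followed in lists, which are set against all 308 tested miRNAs, of which 0.974% were called and 57.5% had higher values in SE-BDEV (46.8% to 49.0% under other scalings). Among 9 miRNAs linked to extracellular matrix and fibrosis 4 were tested, 3 with higher and 1 with lower values in SE-BDEV, and 1 was called. That miRNA was miR-21a-5p, known to promote fibrosis in several organs, at 126 ± 33.2 RPM in SE-BDEV and 15.1 ± 7.20 RPM in CON-BDEV (SD, n = 3), a log2 difference of 3.08 (limma adjusted p = 0.000498). The most abundant of the list, miR-143-3p of smooth muscle, was at 1061 ± 221 RPM in SE-BDEV and 841 ± 217 RPM in CON-BDEV (SD, n = 3, limma adjusted p = 0.678). The list's median difference was 0.18, beside 0.061 for all tested miRNAs. Both lists were chosen with earlier results of these data known, so their counts and medians are not independent of these data. Among 6 miRNAs known to target DNA methyltransferases 2 were tested, both with higher values in SE-BDEV and neither called (median 0.37). They were miR-143-3p, which both lists hold, and the merged miR-101a-3p/101b-3p/101c, at 38.0 ± 22.5 RPM in SE-BDEV and 26.0 ± 4.70 RPM in CON-BDEV (SD, n = 3).

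Markers of brain and blood cell types are given as counts, beside the same shares of all tested miRNAs (0.974% called, 57.5% higher); with 1 to 4 tested rows a list, nothing is read from a direction count. The astrocyte-associated miR-23 and miR-26 rows summed to between 19518 and 29416 RPM in SE-BDEV and between 14199 and 21107 RPM in CON-BDEV. All 3 rows were tested, 2 with higher values in SE-BDEV, and none was called (median 0.40). Their most abundant row, miR-26a-5p, was at 20910 ± 4826 RPM in SE-BDEV and 15758 ± 3001 RPM in CON-BDEV (SD, n = 3, limma adjusted p = 0.438). Of 4 neuronal markers 3 had higher values and none was called, with sums of 19322 to 37113 RPM in SE-BDEV and 23125 to 28314 RPM in CON-BDEV. Their most abundant, miR-124-3p, was at 8061 ± 1444 RPM in SE-BDEV and 8213 ± 800 RPM in CON-BDEV (SD, n = 3). Of the 5 microglial and immune markers 4 were tested, all with higher values in SE-BDEV, and 2, miR-155-5p and miR-142a-5p, were called. miR-155-5p was at 222 ± 34.8 RPM in SE-BDEV and 34.7 ± 6.15 RPM in CON-BDEV (SD, n = 3), higher by 2.65 on the log2 scale (limma adjusted p = 0.000284). For miR-142a-5p the values were 92.7 ± 28.2 RPM in SE-BDEV and 24.3 ± 3.00 RPM in CON-BDEV (SD, n = 3), higher by 1.85 (limma adjusted p = 0.00761). That list summed to 309 to 482 RPM in SE-BDEV and 75.1 to 97.6 RPM in CON-BDEV. The marker lists were likewise chosen with earlier results known, so their calls are not independent of these data.

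Both endothelial rows had higher values in SE-BDEV (sums of 4116 to 6342 RPM, against 2828 to 4276 RPM in CON-BDEV) and neither was called. The more abundant, miR-126a-3p, was at 4516 ± 1030 RPM in SE-BDEV and 3241 ± 661 RPM in CON-BDEV (SD, n = 3). Of the oligodendrocyte rows miR-219a-5p was listed at 0 in all libraries, and the other 2 were tested without a call (sums of 198 to 296 RPM in SE-BDEV and 137 to 170 RPM in CON-BDEV). miR-338-3p, the more abundant, was at 214 ± 58.3 RPM in SE-BDEV and 127 ± 16.9 RPM in CON-BDEV (SD, n = 3). Of the red blood cell miRNAs, every library lists miR-451a and miR-144-3p at 0, and the merged miR-486a-5p/486b-5p was at 108 ± 5.04 RPM in SE-BDEV and 123 ± 65.5 RPM in CON-BDEV (SD, n = 3). The part of any cell type in the miR-29 values was not tested, and in vesicles a different number of particles from a cell type and a different load per particle cannot be told apart.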

How the data were processed

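The authors deposited RPM values per miRNA and library, and a DESeq2 comparison, per the submitters' processing notes, which also name the mouse build mm9. The labels' protocols name the miRNeasy Micro Kit, a DNase step and the QIAseq miRNA Library Kit. The aligner, the counting tool and any collapsing of molecular identifiers were not stated. That deposited comparison holds the log2 fold change of SE-BDEV over CON-BDEV and its standard error, a p-value and adjusted p-values, the score of the test, and a normalized signal averaged over libraries.

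All RPM values were whole multiples, within 0.001 of a step, of 1 value per library, taken as 1 read. In at least 1 library the smallest listed value was 2 reads, so no count model was fitted. A value listed at 0 can be fewer reads or a removed value. The comparison used limma 3.58.1 with statmod 1.5.0 in R 4.3.3 on log2(RPM + 1), with trend and robust estimation switched on, for all miRNAs whose mean reached 10 RPM. The script was tested on simulated data with known changes. Exact permutation tests used scipy 1.17.1, and figures matplotlib 3.10.9. Mature and hairpin sequences and coordinates came from RefSeq (GRCm38.p6), matched by name; host genes came from GENCODE M21 on the same assembly, and no deposited coordinate was used. Members, lists and tests were chosen with earlier results of these data known. Named beside the members were the 5 miRNAs of most similar profile, both neighbours of miR-29a-3p in level, and in each list the called members and the most abundant.

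Deviations from the group means correlated by 0.216, 0.202 and 0.462 between libraries numbered 1, 2 and 3, above the bound of 0.1 used for treating numbers as pairs. Without miR-24-3p they were -0.064, -0.061 and -0.081, so the pairing rests on that miRNA. The labels do not describe pairs.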

Additional observations from a re-analysis of the deposited data

How the results depend on the processing

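None of the 4 miR-29 arms with a mean of at least 10 RPM was called under any of 17 alternatives, with adjusted p between 0.330 and 0.984. The other 3 arms were fitted under 2 of these, without a call. Over all tested miRNAs 3 were called, against 10 with the replicate block and 2 to 8 when a single library was dropped (8 when it was CON-BDEV 2). With each library's total taken without the 10 most abundant miRNAs, 2 were called. With a GC trend removed 2 of 270 were called, with and without the block. The block left the miR-29 differences as they were, with adjusted p of 0.670 for miR-29a-3p, 0.398 for miR-29b-3p, 0.670 for miR-29c-3p and 0.931 for miR-29b-2-5p, and changed no other call of the family. After removal of a GC trend, chosen after seeing the data, the log2 difference was -0.041 for miR-29a-3p and -0.023 for miR-29c-3p, also in the blocked fit; the cause was not tested. Other scalings kept all directions, with 0.17 to 0.21 for miR-29a-3p, 0.49 to 0.51 for miR-29b-3p and 0.25 to 0.31 for miR-29c-3p. Leaving out 1 library gave log2 differences of -0.019 to 0.97 for miR-29b-3p and -0.48 to 0.20 for miR-29b-2-5p. It gave 0.090 to 0.59 for the summed 3p arms, -0.15 to 0.11 for the summed 5p arms and -0.0094 to 0.60 for the arm ratio of miR-29c. For the shares of miR-29a-3p, miR-29b-3p and miR-29c-3p it gave -0.065 to 0.0064, -0.11 to 0.58 and -0.010 to 0.20. For the arm ratio of miR-29a it gave -1.60 to -0.43, beside -1.05 with all libraries. That ratio has 3 reads in place of the 0 in CON-BDEV 1, and was -0.46 without that library. Without both libraries numbered 3, added after seeing the data, the summed 5p arms stood at 0.069, the arm ratio of miR-29c at -0.072 and the share of miR-29b-3p at -0.023; the cause was not tested. The planned edgeR and DESeq2 fits were not run, since in at least 1 library no value of 1 read is listed. Precision of the 5p arms is limited by their 15 to 150 reads.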
